A study of Mus musculus with 6 samples.

Results

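The 9 genes described here are *Txnip*, its alpha-arrestin relatives *Arrdc2*, *Arrdc3* and *Arrdc4*, the thioredoxins *Txn1* and *Txn2*, the glucose-sensing transcription factor pair *Mlxip* (MondoA) and *Mlx*, and the glucose transporter *Slc2a1* (GLUT1). They were taken by gene symbol from the 23183 symbols of the count tables, and all 9 were found and were among the 12517 genes with enough counts to be tested. The set was put together with the difference of *Txnip* between the groups already known, so the differences of the 9 genes between the groups are given as a description, with no test.

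RNA was sequenced from 6 tumours grown from UV2237M, a mouse fibrosarcoma line labelled wild type. The 3 treated tumours received gold nanoclusters (GNC), small particles of gold that turn absorbed light into heat, on days 1 and 7, with near-infrared (NIR) irradiation. The other 3, called untreated, received no treatment. Nanoclusters and light were given together, so their parts cannot be told apart, and the labels give neither when tumours were harvested nor the age, strain or number of host animals. Whether each tumour grew in its own animal is not stated, and p-values measure only the spread between these libraries, which may be technical.

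*Txnip* codes for thioredoxin-interacting protein, an alpha-arrestin that binds reduced thioredoxin and blocks its action. Alpha-arrestins are adaptors that bring membrane proteins to ubiquitin ligases for removal from the cell surface, and TXNIP and ARRDC4 are known to lower glucose uptake, TXNIP by driving the internalisation of GLUT1. When glucose-6-phosphate builds up, MondoA with its partner Mlx enters the nucleus and switches on *Txnip* and *Arrdc4*, which closes a feedback loop on glucose entry. *Txnip* RNA is known to be short-lived and to fall quickly in cells that are stimulated to grow or that lack energy.

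All 9 are protein-coding genes (mm10 coordinates). *Arrdc2* lies at chr8:70835129-70839720, *Arrdc3* at chr13:80883384-80896042 and *Arrdc4* at chr7:68736995-68749241. *Txn1* lies at chr4:57943373-57956411, *Txn2* at chr15:77915047-77929006 and *Slc2a1* at chr4:119108711-119137983. *Mlxip* lies at chr5:123394798-123457932 and *Mlx* at chr11:101087277-101092207.

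Total counts lay between 5696774 and 7915087 in treated libraries and between 4680295 and 8019294 in untreated ones. Markers of mesenchymal cells fixed as a list (*Vim*, *Col1a1*, *Sparc* and 9 others) were detected in every library and summed to 28710 to 36570 CPM (counts scaled to a common library size by edgeR) in treated tumours and 27670 to 40430 CPM in untreated ones. Untreated 2 stood apart, with a mean distance to the other libraries of 1.215 on the log2 CPM scale against 0.611 to 0.729 for the other 5. *Col1a1*, the main chain of type I collagen, had 59.4 CPM there and 1975 to 4255 CPM elsewhere. Where a difference moved much without that library, its value without it is given in most cases.

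*Txnip* was lower in treated tumours, with a mean of 106.5 ± 24.7 CPM against 364.8 ± 100.5 CPM for untreated tumours (SD, n = 3 each). It had 105.1, 131.9 and 82.6 CPM in treated 1, 2 and 3, against 311.4, 480.7 and 302.1 CPM in untreated 1, 2 and 3. The highest treated tumour lay well below the lowest untreated one, and untreated 2 was the highest of all. The fitted log2 fold change was -1.78 ± 0.29 (edgeR, standard error), and it was -1.53 ± 0.18 without untreated 2. The counts behind these values ran from 588 to 2463 per library, with a counting error of 4.12% at the fewest. *Txnip* is a protein-coding gene on chromosome 3 (96557957 to 96561883, plus strand, mm10), and its counts are summed over the gene.

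An antisense gene model, *Gm15441*, covers all 3927 bases of *Txnip* on the other strand. The libraries keep the strand, but the strand setting of the counting is not given in the sources used here. *Gm15441* had 5, 5 and 4 counts in treated 1, 2 and 3 and 10, 4 and 9 counts in untreated 1, 2 and 3. These counts are few beside those of *Txnip*. With the strand setting unknown, they do not show how many antisense reads were counted to *Txnip* or left out.

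*Arrdc3* and *Arrdc4*, a pair of related alpha-arrestins, were also lower in treated tumours. *Arrdc4*, the other alpha-arrestin under MondoA control, had 13.4, 11.0 and 11.8 CPM in treated 1, 2 and 3, against 24.2, 19.4 and 19.3 CPM in untreated 1, 2 and 3. *Arrdc3*, known in human cells as an adaptor for the beta2-adrenergic receptor and for an integrin, had 36.1, 52.9 and 39.7 CPM in treated 1, 2 and 3, against 58.5, 117.4 and 65.3 CPM in untreated 1, 2 and 3. In neither gene did the groups overlap, though treated 2 and untreated 1 lay close in *Arrdc3*. The log2 fold change was -0.80 ± 0.22 for *Arrdc4* and -0.90 ± 0.32 for *Arrdc3*. Without untreated 2 it was -0.85 ± 0.19 for *Arrdc4* and -0.53 ± 0.18 for *Arrdc3*, so the size of the *Arrdc3* difference rests in part on that library.

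*Arrdc2*, the least abundant of the 4 alpha-arrestins in untreated tumours, did not follow them. It had 8.22, 6.12 and 10.1 CPM in treated 1, 2 and 3, against 8.77, 2.68 and 8.10 CPM in untreated 1, 2 and 3. The groups overlapped, and untreated 2, with 12 counts and a counting error of 28.9%, was the low value. Its log2 fold change of 0.30 ± 0.46 over all 6 libraries became -0.06 ± 0.28 once untreated 2 was left out.

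**Figure D1:**
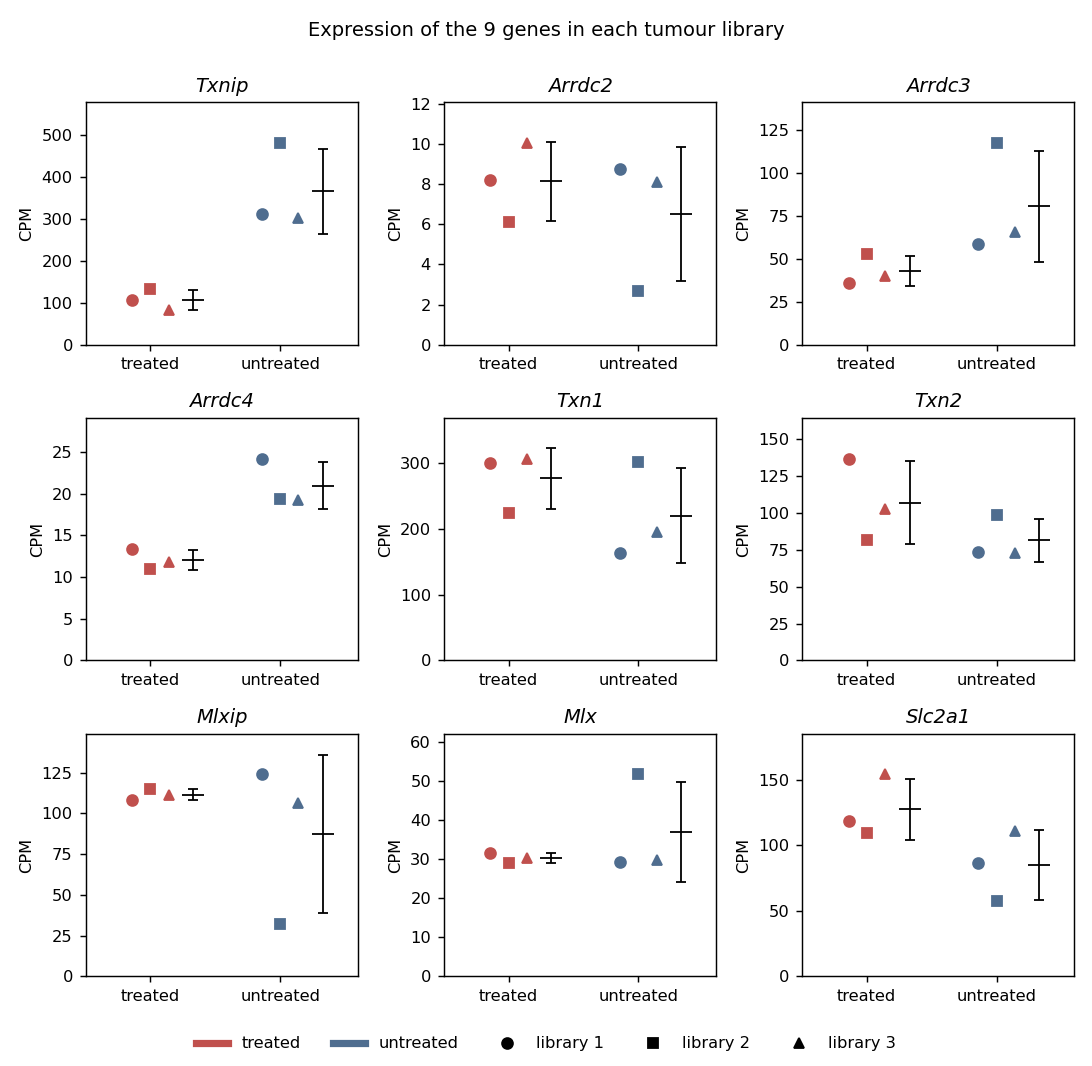
Expression of the 9 genes in CPM (vertical axes from 0), treated libraries on the left and untreated ones on the right of each panel; symbols give the library number, and the black bar is the mean with SD (n = 3). *Txnip*, *Arrdc3* and *Arrdc4* are the panels in which the treated values all lie below the untreated ones.

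In all, treated and untreated values overlapped in 6 of the 9 genes and were apart in 3, all 3 lower in treated tumours. Over all tested genes 10.2% were lower and 10.6% higher in treated tumours without overlap, and nothing is read from the members' count because the set was chosen on this contrast. edgeR's quasi-likelihood test called 0.0% of the 12517 genes at a Benjamini-Hochberg adjusted p under 0.05 with a smallest adjusted p of 0.592. At an unadjusted p under 0.05, 4.85% of all genes were lower and 3.32% higher. The median log2 fold change was 0.30 over the 9 genes and -0.001 over all tested genes, and it was -0.05 over the 9 genes without untreated 2.

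The thioredoxins, the proteins that TXNIP holds in check, had mean levels on the other side. *Txn1*, the cytosolic thioredoxin that reduces disulphides in other proteins, had 299.8, 223.4 and 306.6 CPM in treated 1, 2 and 3, against 163.4, 301.5 and 195.1 CPM in untreated 1, 2 and 3. *Txn2*, its mitochondrial counterpart, had 136.6, 81.2 and 102.4 CPM in treated 1, 2 and 3, against 73.7, 98.2 and 72.5 CPM in untreated 1, 2 and 3. In both genes untreated 2 lay within the treated range, and all treated values lay above untreated 1 and 3. The log2 fold change was 0.33 ± 0.29 for *Txn1* and 0.39 ± 0.26 for *Txn2*. Without untreated 2 it was 0.62 ± 0.16 for *Txn1* and 0.54 ± 0.20 for *Txn2*. Without that library 2 of the 9 genes, the thioredoxins, lay higher with no overlap and the same 3 as before lay lower, beside 19.7% higher and 19.9% lower among all tested genes. *Txn1* has a processed pseudogene in the annotation, *Txn-ps1*, and reads that match both may have been counted either way.

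*Txnip* was also set against thioredoxin within the same tumour. Per kilobase of the longest transcript, the ratio of *Txnip* to *Txn1* was 0.130, 0.220 and 0.100 in treated 1, 2 and 3, against 0.709, 0.593 and 0.576 in untreated 1, 2 and 3. Untreated 2 lay between the other untreated tumours in this ratio, while it was the highest of the 3 in both levels. The ratio of *Txnip* to *Txn2* was 0.558, 1.18 and 0.584 in treated 1, 2 and 3, against 3.07, 3.55 and 3.02 in untreated 1, 2 and 3. The ratios repeat the contrast that chose *Txnip* and are given as levels only.

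The transcription factors that sense glucose-6-phosphate showed no like difference. *Mlxip*, which codes for MondoA, had 108.2, 114.7 and 111.2 CPM in treated 1, 2 and 3, against 123.9, 32.4 and 106.1 CPM in untreated 1, 2 and 3. *Mlx*, its dimer partner, had 31.6, 29.0 and 30.3 CPM in treated 1, 2 and 3, against 29.2, 51.8 and 29.8 CPM in untreated 1, 2 and 3. In both genes 5 of the 6 tumours lay close together and untreated 2 lay far off, low in *Mlxip* and high in *Mlx*. The log2 fold change of *Mlxip*, 0.35 ± 0.45 over all 6 libraries, became -0.05 ± 0.11 once untreated 2 was left out. That of *Mlx*, -0.28 ± 0.27 over all 6, became 0.03 ± 0.12. RNA levels do not show where in the cell MondoA is or whether it binds DNA. *Mlx* shares 385 bases with *Psmc3ip* on the other strand, which had 5.71 to 11.3 CPM in treated and 5.45 to 10.7 CPM in untreated tumours.

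*Slc2a1*, the transporter that carries basal glucose uptake and that TXNIP removes from the surface, had a higher mean in treated tumours. It had 118.5, 109.6 and 154.2 CPM in treated 1, 2 and 3, against 86.8, 57.4 and 111.1 CPM in untreated 1, 2 and 3. The groups overlapped by a small margin, with treated 2 just below untreated 3. Its log2 fold change of 0.58 ± 0.29 over all 6 libraries became 0.36 ± 0.17 once untreated 2 was left out.

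Per transcript length, which allows levels of different genes to be set side by side, *Txn1* was the most abundant of the 9 in both groups, at 263.2 ± 44.0 CPM per kilobase in treated and 209.3 ± 68.9 CPM per kilobase in untreated ones (SD, n = 3). *Txnip* had place 4 in treated tumours, at 37.7 ± 8.75 CPM per kilobase, after *Txn2* (52.1 ± 13.6) and *Slc2a1* (39.1 ± 7.23). In untreated tumours it had place 2, at 129.0 ± 35.6 CPM per kilobase, ahead of *Txn2* (39.8 ± 7.08) and *Slc2a1* (26.1 ± 8.26). In treated tumours *Txn2*, *Slc2a1* and *Txnip* overlapped as neighbours, while in untreated tumours *Txnip* was apart from *Txn2* below it and overlapped with *Txn1* above it. *Arrdc4* was the lowest of the 9 in treated tumours, at 3.09 ± 0.312 CPM per kilobase, and overlapped with *Arrdc2* at 3.46 ± 0.839. In untreated tumours *Arrdc4*, at 5.37 ± 0.719, lay apart from *Arrdc2*, the lowest at 2.77 ± 1.42. *Arrdc3*, *Mlx* and *Mlxip* lay between these in both groups.

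**Figure D2:**
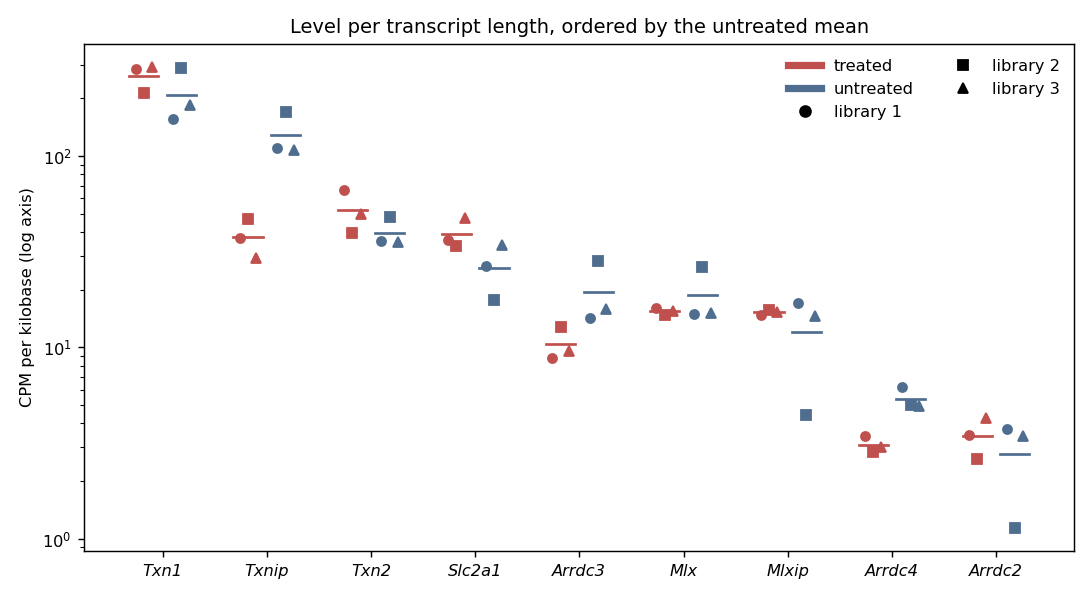
Level of each gene in CPM per kilobase of its longest transcript on a log axis, treated libraries left of untreated ones for each gene; horizontal lines are means of 3 libraries and symbols give the library number. *Txnip* lies at 37.7 CPM per kilobase in treated tumours, level with *Slc2a1*, and at 129.0 in untreated tumours, next to *Txn1*.

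The sequence upstream of the alpha-arrestin genes is shown because MondoA with Mlx is known to bind paired E-box-like sites and because NF-Y, which binds CCAAT boxes, is known to act with it on *Txnip*. The 250 bases before the transcript start were read from RefSeq's promoter table (GRCm38.p6, the same build as mm10), which held all 9 genes. Capitals mark CCAAT boxes on either strand and, also on either strand, the core site CACGNG, of which the full E-box is a special case. Each sequence is written from 5′ to 3′ on the strand of the gene. The regions are chr3:96557707-96557956 (plus strand), chr7:68749239-68749488 (minus strand), chr13:80883134-80883383 (plus strand) and chr8:70839721-70839970 (minus strand).
Txnip: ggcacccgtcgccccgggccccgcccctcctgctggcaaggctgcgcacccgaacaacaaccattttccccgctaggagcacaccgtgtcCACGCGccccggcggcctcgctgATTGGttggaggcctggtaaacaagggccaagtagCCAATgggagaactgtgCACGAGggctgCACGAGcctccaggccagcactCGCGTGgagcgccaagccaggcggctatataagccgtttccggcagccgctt
Arrdc4: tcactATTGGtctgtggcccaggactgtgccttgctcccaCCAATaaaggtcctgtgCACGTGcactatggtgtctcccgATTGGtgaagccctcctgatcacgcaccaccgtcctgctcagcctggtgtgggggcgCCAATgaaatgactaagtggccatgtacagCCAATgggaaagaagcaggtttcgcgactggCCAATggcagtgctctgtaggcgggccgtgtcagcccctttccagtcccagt
Arrdc3: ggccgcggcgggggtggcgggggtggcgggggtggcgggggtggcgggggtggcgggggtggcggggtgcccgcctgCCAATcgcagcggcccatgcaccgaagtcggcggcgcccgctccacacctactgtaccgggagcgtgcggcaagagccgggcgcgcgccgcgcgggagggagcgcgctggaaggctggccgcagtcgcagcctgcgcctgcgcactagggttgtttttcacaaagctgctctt
Arrdc2: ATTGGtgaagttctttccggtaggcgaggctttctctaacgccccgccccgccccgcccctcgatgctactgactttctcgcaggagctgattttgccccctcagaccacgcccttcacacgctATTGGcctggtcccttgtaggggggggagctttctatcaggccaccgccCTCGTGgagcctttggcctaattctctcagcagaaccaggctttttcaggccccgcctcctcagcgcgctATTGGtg

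The *Txnip* region held 4 core sites, of which 2 lie in tandem with 5 bases between them, as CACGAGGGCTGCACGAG at 85 to 69 bases before the start. The pattern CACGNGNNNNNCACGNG, searched on both strands, was present in 15 of 32841 promoter regions of this length, or 0.0457%, and *Txnip* was the only one of the 9 genes with it. A CCAAT box lay 102 to 98 bases before the *Txnip* start, upstream of the tandem, and another at 137 to 133 on the other strand. CCAAT was found in 33.9% of all regions and the core site in 23.5%.

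*Arrdc4* held 6 CCAAT boxes and 1 full E-box CACGTG, 193 to 188 bases before its start, a motif present in 6.02% of all regions. *Mlx* held 1 full E-box as well, 40 to 35 bases before its start. *Arrdc2* held 3 CCAAT boxes and 1 core site, and *Arrdc3* held 1 CCAAT box and no core site in the region before its first start, of 3 in the table. *Txn1* and *Slc2a1* held neither motif, *Txn2* held 1 CCAAT box and *Mlxip* held 2. The heat shock element GAANNTTC, found in 6.70% of regions, occurred in *Mlx* alone of the 9. These are matches of letters in a fixed window and say nothing of what is bound there in these tumours.

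**Figure D3:**
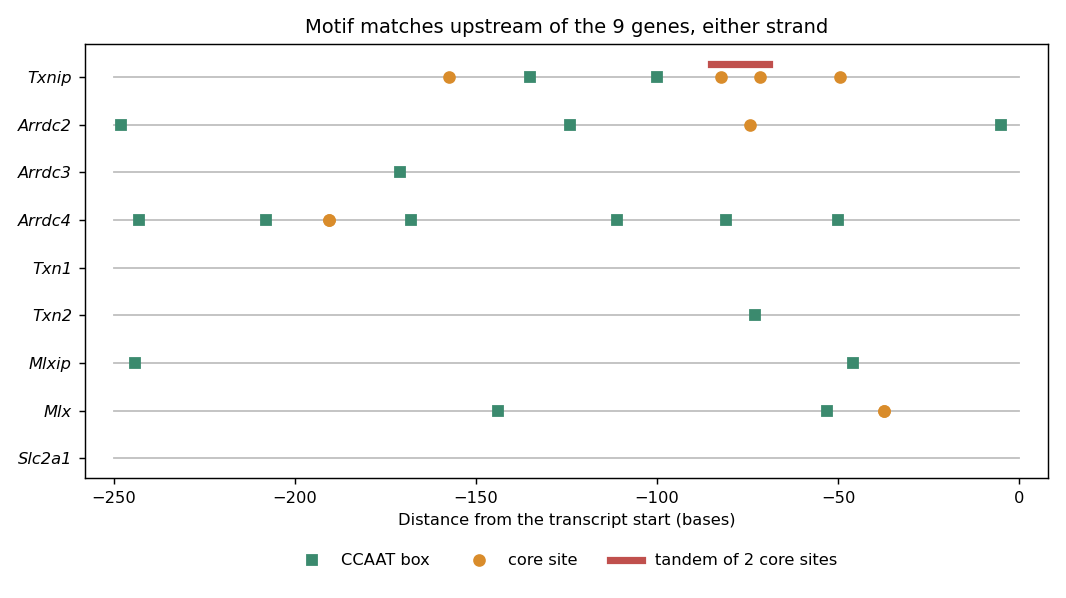
Matches of the CCAAT box (squares), the core site CACGNG (circles) and the tandem of 2 core sites (bar) on either strand, by distance in bases from the transcript start, for the 9 genes, with the first start of *Arrdc3*. The tandem appears only in *Txnip*, at 85 to 69 bases before the start, and *Arrdc4* has 6 CCAAT boxes.

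The library that stands apart shifted the 9 genes by different amounts. In untreated 2, set against the mean of untreated 1 and 3 on the log2 CPM scale, *Mlxip* lay at -1.81, *Arrdc2* at -1.51 and *Slc2a1* at -0.77. *Arrdc3* lay at 0.92, *Mlx* at 0.80, *Txn1* at 0.75, *Txnip* at 0.65 and *Txn2* at 0.42, and *Arrdc4* at -0.15. *Arrdc2* has the highest GC content of the 9 transcripts (59.4%) and *Arrdc3* the lowest (40.6%), and *Txn2* (53.5%) and *Mlxip* (53.2%) lay apart at nearly the same content. With a trend in GC content and length taken out of each library, the log2 fold change was -1.74 ± 0.25 for *Txnip*, -0.84 ± 0.20 for *Arrdc4*, -0.56 ± 0.19 for *Arrdc3* and 0.06 ± 0.15 for *Mlxip*. It was -0.27 ± 0.23 for *Mlx* and 0.19 ± 0.34 for *Arrdc2*, close to the values without this correction. For *Txn1* it was 0.45 ± 0.18, for *Txn2* 0.34 ± 0.25 and for *Slc2a1* 0.45 ± 0.19. The part of RNA quality in these values was not tested.

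**Figure D4:**
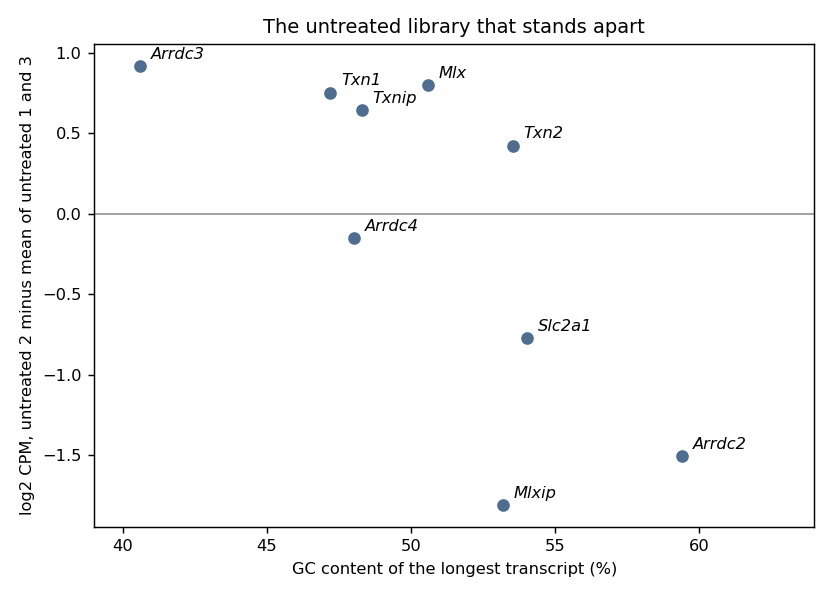
GC content of the longest transcript (horizontal axis, %) against the level in untreated 2 minus the mean of untreated 1 and 3 (vertical axis, log2 CPM) for the 9 genes. *Mlxip* and *Arrdc2* lie lowest, at -1.81 and -1.51, and *Arrdc3* highest, at 0.92.

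**Figure D5:**
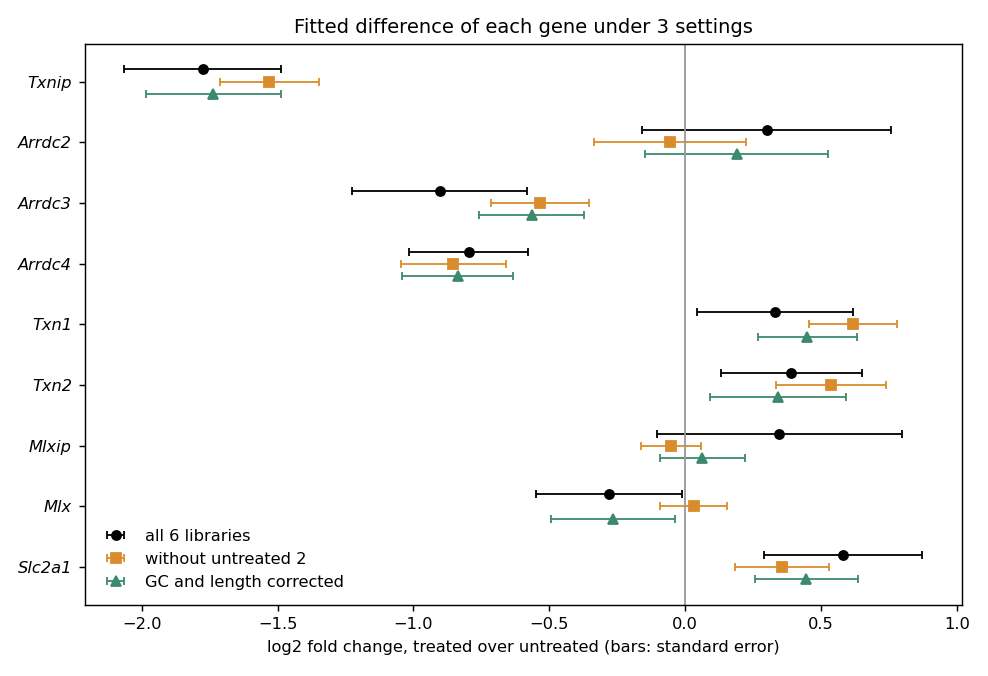
Log2 fold change of treated over untreated tumours with its standard error for each gene, with all 6 libraries (circles), without untreated 2 (squares) and after GC and length correction (triangles). *Txnip*, *Arrdc3* and *Arrdc4* lie below 0 under all 3 settings, and *Mlxip*, *Mlx* and *Arrdc2* lie near 0 without untreated 2.

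In whole tumours, fewer cells of a type and less RNA per cell cannot be told apart. Macrophage markers (10 genes, all detected in every library) summed to 711.7, 1375 and 1018 CPM in treated 1, 2 and 3, against 1250, 2695 and 1591 CPM in untreated 1, 2 and 3, and the groups overlapped. Like *Txnip*, these markers were highest in untreated 2 and, among treated tumours, in treated 2. Treated 2 had more of them than untreated 1, and less *Txnip* (131.9 against 311.4 CPM). Keratinocyte markers (7 of 8 in the tables) ran from 4.35 to 66.3 CPM in treated tumours, against 1256, 597.2 and 5.52 CPM in untreated 1, 2 and 3. Neutrophil markers (6 of 7 in the tables) ran from 90.7 to 130.9 CPM in treated and from 23.9 to 103.4 CPM in untreated tumours. T and NK cell markers (8 of 9 in the tables) summed to at most 3.61 CPM in treated and 7.11 CPM in untreated tumours, with *Cd3e* at 0 in every library. Endothelial markers ran from 121.6 to 197.2 CPM in treated and from 89.0 to 159.4 CPM in untreated tumours. Muscle markers ran from 7.07 to 463.0 CPM in treated and from 23.2 to 110.0 CPM in untreated tumours, adipocyte markers from 9.30 to 27.9 CPM and from 12.6 to 25.0 CPM, and red cell markers (6 of 7 in the tables, *Hba-a2* and *Hbb-bs* at 0 in every library) from 2.72 to 10.3 CPM and from 3.07 to 3.93 CPM. The part of these cells in the values of the 9 genes was not tested.

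The genes whose log2 CPM over the 6 libraries was most like that of *Txnip*, among 10430 named genes with a mean of at least 5 CPM, were *Fam180a* (Pearson r of 0.995), *Nrp1*, a receptor for semaphorins and VEGF (0.994), *P2rx5*, an ATP-gated channel (0.993), *Tnfrsf14*, a TNF receptor family member (0.991), and *Mex3b*, an RNA-binding protein (0.990). *Fam180a* had 1.61, 2.58 and 1.12 CPM in treated 1, 2 and 3, against 9.98, 18.5 and 7.24 CPM in untreated 1, 2 and 3. *Nrp1* had 173.6, 180.0 and 167.0 CPM in treated tumours, against 236.7, 268.0 and 226.9 CPM in untreated ones. Each of these 5 genes was highest in untreated 2 and, among treated tumours, highest in treated 2, as *Txnip* was. This shared order follows largely from choosing them by their likeness to *Txnip* over the same libraries. The 3 genes most opposed were *Sh3bgrl3* (-0.998), *Snrpd3*, a spliceosome protein (-0.992), and *Polr2c*, a subunit of RNA polymerase II (-0.991). Over all 6 *Arrdc3* came nearest of the other 8 listed genes, with r of 0.905 and place 357. *Arrdc4* followed with 0.859, while *Slc2a1* had -0.872 and *Mlx* 0.570. Once untreated 2 was left out, *Arrdc3* had 0.892 and *Arrdc4* 0.898, so their order reversed, and *Slc2a1* had -0.807. The sign changed in *Mlx*, to -0.525, and in *Mlxip*, from -0.60 to 0.32. *Txn1* moved from -0.41 to -0.94, *Txn2* from -0.51 to -0.78 and *Arrdc2* from -0.62 to -0.10. The coefficient measures likeness over libraries that fall into 2 groups, with or without untreated 2, which stood apart, and it is given with no test.

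Other genes of the pathway were read from the same fit in lists of 147 genes, 128 of them tested, that leave out the 9 genes. The lists were chosen with earlier results of these data known, so calls and p-values within them are given as a description. edgeR called 0 of the 128, as it called none of all genes. At an unadjusted p under 0.05 there were 7 higher and 10 lower in treated tumours, beside 3.32% and 4.85% of all genes. DESeq2 called 2 of them, both higher, *Rgs16* and *Dusp1*, beside 0.136% higher and 0.232% lower of 12510 genes. Without untreated 2 it called 4, all higher, with *Myc* and *Prdx6* added, beside 0.931% higher and 1.32% lower of 12031 genes. The median log2 fold change of the 128 genes was 0.07, against -0.001 for all tested genes, and 0.02 without untreated 2.

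Among genes known as targets of MondoA or its relative ChREBP (15 genes, 12 tested), 9 lay higher and 3 lower in treated tumours, with a median log2 fold change of 0.42, or 0.17 without untreated 2. *Rgs16*, a regulator of G protein signalling that ChREBP is known to raise in pancreatic islets, had 59.0, 52.6 and 87.4 CPM in treated 1, 2 and 3, against 9.83, 7.59 and 20.4 CPM in untreated 1, 2 and 3. As a description, DESeq2 called *Rgs16* higher (adjusted p = 0.000199, log2 fold change 2.37) and edgeR did not (adjusted p = 0.592, log2 fold change 2.38 ± 0.42). *Elovl6*, a fatty acid elongase, had 115.8 ± 22.8 CPM in treated and 73.1 ± 21.3 CPM in untreated tumours. Its log2 fold change was 0.66, and 0.45 without untreated 2. *Klf10*, a transcription factor, had 74.2 ± 22.3 CPM in treated and 122.1 ± 51.8 CPM in untreated tumours, and *Khk*, the fructose kinase, had 4.08 ± 0.963 and 6.46 ± 2.14 CPM. Leaving out untreated 2 took the log2 fold change of *Klf10* to -0.33, against -0.72 with all libraries, and that of *Khk* to -0.36, against -0.65. *Txnip* and *Arrdc4*, left out of this list, lay lower in treated tumours.

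In the rest of the Myc, Max and Mlx network (11 genes, 9 tested), 7 lay higher and 2 lower, with a median log2 fold change of 0.18, or 0.09 without untreated 2. *Myc*, the growth regulator that shares DNA sites with MondoA, had 1559, 920.5 and 1056 CPM in treated 1, 2 and 3, against 531.1, 355.3 and 711.9 CPM in untreated 1, 2 and 3. The groups did not overlap, the log2 fold change was 1.15 ± 0.33, and DESeq2 called it without untreated 2 (adjusted p = 0.00996) and not with all libraries (0.136). *Mxd4*, a Max partner that opposes Myc, had 41.0 ± 11.7 CPM in treated and 79.9 ± 37.1 CPM in untreated tumours. *Mxi1* had 104.3 ± 16.6 and 85.3 ± 18.9 CPM, and *Mga* 184.7 ± 25.5 and 202.7 ± 38.2 CPM, in treated and untreated tumours. Without untreated 2 the log2 fold change was -0.52 for *Mxd4* (-0.96 with all libraries), 0.12 for *Mxi1* (0.29) and 0.02 for *Mga* (-0.13). *Mlxipl*, which codes for ChREBP, did not pass the filter on low counts.

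In the thioredoxin system (20 genes, 19 tested), 11 lay higher and 8 lower, and the groups did not overlap in 6, all higher in treated tumours, beside 10.6% of all tested genes. Over all 128 tested genes of the lists, 20 lay higher and 16 lower without overlap, beside 10.6% and 10.2% of all tested genes. The median log2 fold change was 0.06, or 0.22 without untreated 2. *Txnrd1*, which recharges cytosolic thioredoxin, had 229.2, 158.2 and 247.3 CPM in treated 1, 2 and 3, against 114.2, 72.5 and 155.7 CPM in untreated 1, 2 and 3. The fitted difference was 0.89 ± 0.33 (log2), and 0.64 ± 0.21 without untreated 2. *Prdx6*, a peroxiredoxin, had 226.3, 198.7 and 223.2 CPM in treated tumours, against 139.3, 108.9 and 161.3 CPM in untreated ones, and its value was 0.66 ± 0.22 on the same scale. Neither passed edgeR's test with all libraries (adjusted p = 0.592 for each), and DESeq2 called *Prdx6* without untreated 2 (adjusted p = 0.0199). *Glrx3* and *Prdx5* had log2 fold changes of -0.92 ± 0.58 and -0.43 ± 0.33, and of 0.12 and 0.01 without untreated 2, in which both were highest.

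Among other proteins with an arrestin fold (7 genes, 6 tested), 3 lay higher and 3 lower, with a median log2 fold change of -0.24, or -0.18 without untreated 2. *Arrdc1*, the alpha-arrestin known to drive the budding of microvesicles, had 12.7, 15.5 and 12.6 CPM in treated 1, 2 and 3, against 23.8, 33.5 and 19.6 CPM in untreated 1, 2 and 3. The groups did not overlap, and the log2 fold change of -0.91 ± 0.27 was -0.68 without untreated 2 and did not pass edgeR's test (adjusted p = 0.592). *Arrb1*, a beta-arrestin, had 59.8 ± 17.2 CPM in treated and 36.6 ± 18.0 CPM in untreated tumours. *Vps26b*, a retromer subunit, had 96.1 ± 5.47 and 81.0 ± 39.3 CPM, and *Dscr3*, a relative of *Vps26b*, 39.2 ± 3.19 and 68.6 ± 38.0 CPM. Without untreated 2 the log2 fold change was 0.37 for *Arrb1* (0.70 with all libraries), -0.12 for *Vps26b* (0.24) and -0.26 for *Dscr3* (-0.80). *Arrdc5* did not pass the filter on low counts.

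The NEDD4 family of ubiquitin ligases, whose WW domains bind the tails of alpha-arrestins, split evenly, with 4 of 8 tested genes higher and 4 lower and a median log2 fold change of -0.06, or -0.03 without untreated 2. *Nedd4l* had 33.4 ± 2.38 CPM in treated and 18.5 ± 9.70 CPM in untreated tumours, and *Smurf1* 124.0 ± 9.98 and 81.6 ± 48.2 CPM. *Itch*, a ligase known to act on TXNIP, had 87.8 ± 11.4 CPM in treated and 134.5 ± 74.2 CPM in untreated tumours, where 219.8 CPM was the value of untreated 2 and 97.9 and 85.8 CPM those of untreated 1 and 3. *Hecw2* had 2.95 ± 1.33 CPM in treated and 6.31 ± 2.68 CPM in untreated tumours. Leaving out untreated 2 gave log2 fold changes of 0.50 for *Nedd4l* (0.84 with all libraries), 0.18 for *Smurf1* (0.60), -0.07 for *Itch* (-0.61) and -0.72 for *Hecw2* (-1.09).

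Of the other glucose and lactate carriers (15 genes, 8 tested), 4 lay higher and 4 lower, with a median log2 fold change of 0.03, which became -0.04 without untreated 2. *Slc2a8*, an intracellular glucose transporter, had 10.4, 8.43 and 10.9 CPM in treated 1, 2 and 3, against 18.3, 17.0 and 15.1 CPM in untreated 1, 2 and 3, with a difference of -0.76 ± 0.23 (log2), and of -0.76 without untreated 2. *Slc2a3*, the transporter GLUT3, had 21.8 ± 5.90 CPM in treated and 15.6 ± 2.76 CPM in untreated tumours. *Slc16a3*, a lactate exporter, had 32.2 ± 7.68 and 19.5 ± 7.38 CPM, and *Slc2a6* 2.54 ± 0.929 and 5.56 ± 4.28 CPM. *Slc2a6* had 10.5 CPM in untreated 2, and its log2 fold change of -1.10 became -0.30 without that library. That of *Slc16a3* went from 0.71 to 0.48. None passed edgeR's test. Of the enzymes of glycolysis and pyruvate metabolism (19 genes, 18 tested), 12 lay higher and 6 lower, with a median log2 fold change of 0.10, or 0.11 without untreated 2. *Pfkp*, a phosphofructokinase, had 99.3 ± 12.9 CPM in treated and 63.0 ± 22.9 CPM in untreated tumours, and *Pkm*, pyruvate kinase, 2622 ± 305.3 and 1815 ± 474.7 CPM. *Pdk1*, a pyruvate dehydrogenase kinase, had 97.8 ± 7.02 CPM in treated and 150.7 ± 37.7 CPM in untreated tumours. *Ldhb*, a lactate dehydrogenase subunit, had 4.01 ± 0.714 CPM in treated and 5.83 ± 1.75 CPM in untreated tumours. Without untreated 2 the log2 fold change was 0.38 for *Pfkp* (0.65 with all libraries), 0.32 for *Pkm* (0.53), -0.42 for *Pdk1* (-0.62) and -0.33 for *Ldhb* (-0.52).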

How the data were processed

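RNA from 6 tumours was analysed, 3 treated and 3 untreated, grouped by their titles. Trizol-extracted total RNA went into strand-keeping libraries, per the labels' protocols. Per the submitters' processing notes, TopHat and the build mm10 were used. The counter, its use of strand, its gene models and all versions: not given in the sources used here. What the authors deposited are raw counts, 1 whole number for each gene symbol and library. Members and gene lists were chosen with earlier results of these data known.

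With edgeR 4.0.16 (R 4.3.3), filterByExpr at a smallest count of 10 kept 12517 genes. The whole table was fitted with TMM scaling and the quasi-likelihood test, 2-sided, with Benjamini-Hochberg adjustment over all tested genes. CPM use the TMM library sizes. The standard error is the log2 fold change over the root of F. DESeq2 1.42.0 and limma 3.58.1 served as alternatives. No permutation test was run. Named genes outside the 9 are the 2 per direction and list with the smallest p, and those most like or unlike *Txnip* (log2 CPM, prior count 3). Length and GC content come from the longest GENCODE M21 transcript, found for 99.4% of tested genes. The edgeR steps were tested on simulated counts. No 2 libraries agreed within sampling noise (smallest chi-square per gene 5.64). Intervals for counting error assume independent reads.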

Additional observations from a re-analysis of the deposited data

How the results depend on the processing

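Of the 17 alternatives, none changed the sign of *Txnip* (log2 fold change -1.96 to -1.53), *Arrdc3* (-1.10 to -0.53), *Arrdc4* (-0.88 to -0.69), *Txn1* (0.14 to 0.63), *Txn2* (0.17 to 0.55) or *Slc2a1* (0.36 to 0.82). *Arrdc2* (-0.06 to 0.55), *Mlxip* (-0.05 to 0.67) and *Mlx* (-0.43 to 0.03) changed sign in 3 of them each, limma-voom with quality weights and both fits without untreated 2. The number of genes called was 0 with edgeR, 46 with DESeq2, 2 with limma-voom and quality weights, and 0 to 271 when a library was left out (4 without untreated 3 in edgeR and 271 without untreated 2 in DESeq2). In the pathway lists it was 0 with edgeR, 2 with DESeq2, and 0 to 4 when a library was left out. With edgeR without untreated 2, DESeq2 without it and quality weights, in that order, the log2 fold change changed sign in *Vps26b* (-0.1158, -0.1147 and -0.0913), *Glrx3* (0.1164, 0.1164 and 0.1003), *Prdx5* (0.0082, 0.0086 and 0.0058), *Mga* (0.0243, 0.0248 and 0.0092) and *Prkab2* (0.0551, 0.0567 and 0.0431). With 1 library left out at a time, edgeR gave -0.1158 to 0.4596 for *Vps26b*, -1.3063 to 0.1164 for *Glrx3*, -0.6398 to 0.0082 for *Prdx5*, -0.2289 to 0.0243 for *Mga* and -0.5138 to 0.0551 for *Prkab2*. Each of these genes had its extreme value in untreated 2, and the cause was not tested. Samples with the same number did not deviate together (correlations of -0.182, -0.110 and 0.108). Untreated 2 enters the untreated mean, so these correlations cannot exclude a pairing, and the labels state none. With the replicate block edgeR called 0 genes and *Txnip* had -1.77. DESeq2 without untreated 2 and deposited totals without scaling factors were added after the data were seen. Depth limits *Arrdc2* most, with 12 to 81 counts per library.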

Other observations

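Energy sensors and regulators (17 genes, 16 tested) split into 9 higher and 7 lower in treated tumours, and edgeR called 0 of them. *Sesn1*, a stress-induced sestrin, had 36.8, 47.9 and 25.0 CPM in treated 1, 2 and 3, against 66.7, 117.2 and 51.3 CPM in untreated 1, 2 and 3. Its log2 fold change was -1.10 ± 0.38 and became -0.69 once untreated 2 was left out. *Prkag1*, a subunit of AMPK, the kinase known to mark TXNIP for breakdown, had 48.1 ± 0.578 CPM in treated and 41.4 ± 0.729 CPM in untreated tumours. Its groups did not overlap, and its log2 fold change was 0.22 ± 0.17. *Stk11*, the kinase upstream of AMPK, had 102.1 ± 15.9 and 72.8 ± 36.8 CPM in treated and untreated tumours.

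Glucocorticoid-responsive genes, which include *Txnip* in other tissues, gave 5 higher and 6 lower of 11 tested. *Pik3ip1*, an inhibitor of PI3 kinase, had 30.9, 36.7 and 17.8 CPM in treated 1, 2 and 3, against 49.0, 64.5 and 53.9 CPM in untreated 1, 2 and 3. *Dusp1*, a MAP kinase phosphatase, had 58.7 ± 22.9 CPM in treated and 17.1 ± 2.91 CPM in untreated tumours. DESeq2 called *Dusp1* higher (adjusted p = 0.00279) and edgeR did not (adjusted p = 0.592). Its list was chosen with earlier results of these data known, so these values are a description. *Mt2*, a metallothionein, had 206.0 ± 24.1 CPM in treated and 137.2 ± 40.7 CPM in untreated tumours, and *Cebpd* 11.0 ± 2.63 and 21.0 ± 11.3 CPM. HIF targets other than glycolytic enzymes gave 7 higher and 7 lower of 14. Among them 1 lay higher and 5 lower without overlap of the groups, beside 10.6% and 10.2% of all tested genes. *Egln3*, an oxygen sensor, had 6.72 ± 0.649 CPM in treated and 12.3 ± 3.38 CPM in untreated tumours, and *Bnip3* 140.0 ± 13.2 and 279.0 ± 172.1 CPM, with 476.9 CPM in untreated 2. *P4ha2* had 14.3 ± 7.08 CPM in treated and 4.37 ± 3.36 CPM in untreated tumours, and *Ero1l* 311.7 ± 104.4 and 197.1 ± 34.9 CPM. Of the NLRP3 inflammasome, to which TXNIP is known to bind, 2 of 7 genes lay higher and 5 lower. *Il1b* had 34.8 ± 14.6 CPM in treated and 12.7 ± 8.06 CPM in untreated tumours and *Gsdmd*, the pore-forming protein, 19.9 ± 2.39 and 35.0 ± 8.90 CPM, and edgeR called neither. *Nlrp3* had 13.1 ± 3.24 CPM in treated and 7.85 ± 6.50 CPM in untreated tumours, and *Il18* 1.75 ± 0.129 and 3.27 ± 0.410 CPM. The median log2 fold change was 0.0036 for the energy list, -0.05 for the glucocorticoid list, -0.04 for the HIF list and -0.26 for the inflammasome list. Without untreated 2 the medians were -0.09 for the energy list, 0.15 for the glucocorticoid list, -0.14 for the HIF list and -0.09 for the inflammasome list, so that the first 2 changed sign. *Prkab2*, another AMPK subunit, had 30.5 ± 3.30 CPM in treated and 38.4 ± 15.9 CPM in untreated tumours. Several of these differences were much smaller without untreated 2. The log2 fold change was then 0.11 for *Stk11* (0.49 with all libraries), -0.37 for *Bnip3* (-0.99), -0.42 for *Cebpd* (-0.91) and 0.28 for *Nlrp3* (0.71), and 0.06 for *Prkab2* (-0.33). For *P4ha2* it was 1.27 (1.66 with all libraries) and for *Gsdmd* -0.60 (-0.81).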
